A study of Mus musculus with 6 samples.

Results

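Desmosomes are adhesive plaques that join neighboring cells and anchor their intermediate filaments. The genes described here encode the plakophilins (*Pkp1*, *Pkp2*, *Pkp3* and *Pkp4*), desmoplakin (*Dsp*), plakoglobin (*Jup*), the desmosomal cadherins desmoglein 2 (*Dsg2*) and desmocollin 2 (*Dsc2*), and the tetraspan membrane protein PERP (*Perp*). They are 9 genes of the 59485 in the deposited table, 23506 of which carry a symbol. They were selected by symbol, and the family was proposed because *Pkp1* was among the genes with the largest rise in mutants. The difference of *Pkp1* between the genotypes is therefore a description here and is given without a test.

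In a desmosome, the extracellular parts of desmogleins and desmocollins bind the partner cell, plakoglobin and the plakophilins hold the cadherin tails in the plaque, and desmoplakin ties the plaque to keratins or, in heart muscle, to desmin. Desmosomes are best known from epidermis and heart. *Pkp1* and *Dsg3* belong mainly to stratified epithelia, whereas *Pkp2*, *Dsg2* and *Dsc2* also serve simple epithelia and heart. Plakoglobin is shared with the cadherin complexes of adherens junctions, which many cells without desmosomes carry, and *Pkp4* encodes p0071, a relative of p120 catenin that is found in many tissues.

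Sciatic nerves were taken at postnatal day 4 from 3 control and 3 mutant mice, and each animal gave 1 poly-A RNA library. Mutants were *Ht-PA-Cre; Adar1fl/fl;R26R*: Cre under the human tissue plasminogen promoter deletes floxed *Adar*, the gene of the RNA editing enzyme ADAR1, in neural crest (NC) cells, from which Schwann cells (SCs) arise, and R26R marks these cells with YFP. Controls were labelled wild-type, a term that the methods of the study use for animals with 1 or 2 floxed alleles and R26R but no Cre, so the controls carry floxed *Adar* as well, and the labels do not say which of the 2 genotypes each one had. Nerves also hold cells outside the NC lineage, such as endothelial and blood cells, so each value is a sum over deleted and other cells, and in such bulk samples fewer cells of a type and less RNA per cell cannot be told apart. *Adar* itself had values of 1602, 2066 and 1133 in the libraries labelled control 1 to 3 and 11768, 9311 and 9773 in those labelled mutant 1 to 3. This goes against a deletion, and with 1 value per gene the deleted segment cannot be told from the rest, so the libraries are called control-labelled and mutant-labelled, and all directions rest on the labels. The libraries held between 50938349 and 78250094 reads on genes. Skeletal muscle genes were uneven, with sums of 8 markers from 6565 to 34023 in control-labelled and from 43346 to 322688 in mutant-labelled libraries.

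Values are reads per gene divided by a size factor of the library, as deposited, and are called normalized reads. They were compared as log2(value + 1) with limma over the 25802 genes with a mean of at least 10 in at least 1 genotype, and the threshold asked for both a 2-fold change and an unadjusted p of 0.05 or less, as in the methods of the study. Adjustment was by Benjamini-Hochberg across the tested genes, ± is the SD over the 3 libraries of a genotype, SE the standard error of the log2 fold change, and an exact two-sided permutation test of 3 against 3 cannot give a p below 0.1. Adding 1 tends to make the fold changes of genes with few reads smaller. They compare means of logs, so they can lie above or below the ratio of means.

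Across the family, 6 of the 9 genes were past the threshold and higher in mutant-labelled libraries (*Pkp1*, *Pkp2*, *Pkp3*, *Dsp*, *Dsg2* and *Dsc2*), none was lower, and *Pkp4*, *Jup* and *Perp* did not pass it. Of all tested genes, 13.9% were past the threshold and higher, 11.5% were so with an adjusted p at or under 0.05 as well, and 10.4% were past it and lower. Since *Pkp1* brought the family into view and *Pkp1*, *Pkp3*, *Dsp* and *Dsg2* entered the test only through their level in the mutants, the count is a description and no support for a change of desmosomes as a group. In 7 of the 9 genes all mutant-labelled values lay above all control-labelled values, which held for 25.9% of the tested genes. The median log2 fold change was 2.24 for the 9 genes and 0.03 for all tested genes, and the count of 6 was the same with any 1 library left out. The plot of normalized reads by library shows that the raised genes started from very different levels.

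**Figure D1:**
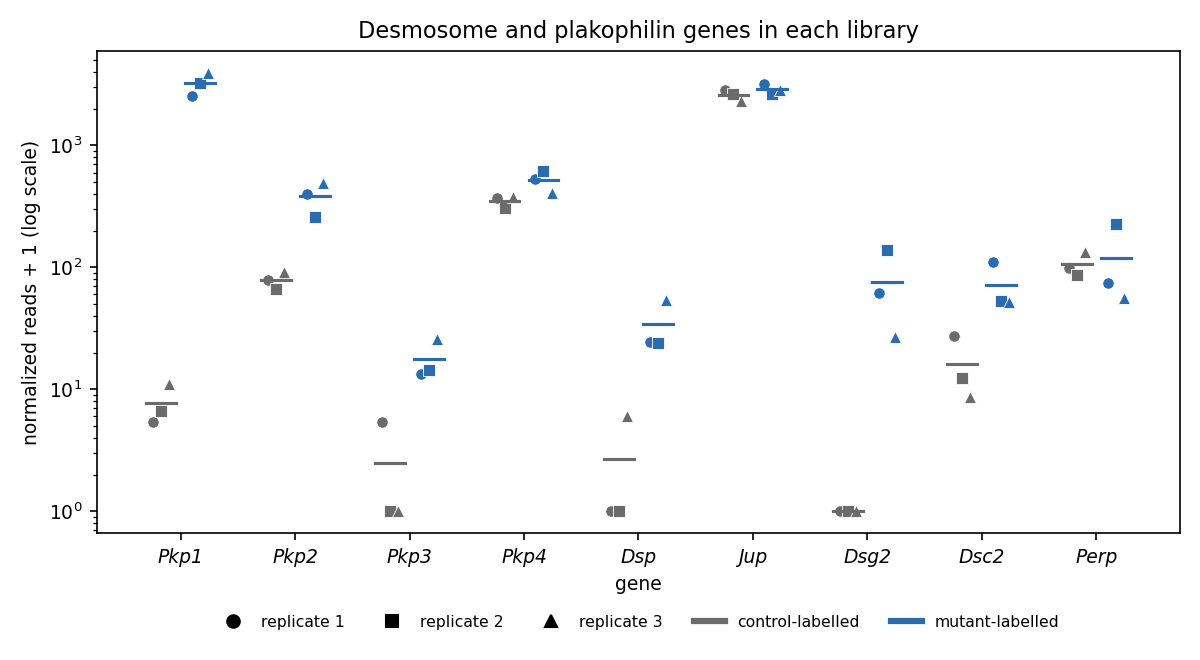
Normalized reads plus 1 (log axis) of the 9 genes in each library, with control-labelled libraries in gray and mutant-labelled libraries in blue, symbols for replicates 1 to 3 and bars for the mean of 3. *Pkp1* goes from below 11 in every control-labelled library to 2531 or more in every mutant-labelled one, *Jup* stays between 2323 and 3206, and *Perp* overlaps.

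Of the plakophilins, *Pkp1* differed most. *Pkp1* (GSMG0002142, chromosome 1, 135871394 to 135919209, minus strand), which strengthens desmosomes of the upper epidermis, was at 4.44, 5.67 and 10.1 in replicates 1, 2 and 3 of the controls. These are 18 reads in all, with at most 8 in a library. In mutant-labelled replicates 1, 2 and 3 it had 2531, 3232 and 3949, or 10823 reads in all. The means differed 480-fold, and the log2 fold change of 8.75 ranked 9 among all tested genes. With so few control reads the size depends on the pseudocount, and it was 8.95 at 0.1 and 7.59 at 10. The mutant-labelled values spread by 21.9% of their mean, so the 3 animals were close to each other on this scale. Per kb of merged GENCODE exons, *Pkp1* was at 1.34 in the controls and 644 in the mutant-labelled libraries, and *Jup* at 403.5 and 449.5. These levels per length are approximate, since reads were counted on constitutive regions whose length the table does not give.

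*Pkp2* (GSMG0014714, chromosome 16, 16213313 to 16272712, plus strand), the plakophilin of heart and simple epithelia, was already present in the controls, at 77.7, 66.1 and 89.97 in replicates 1, 2 and 3. It rose to 396, 259 and 493, and the lowest mutant-labelled value was over 2 times the highest control. The mean was 4.90 times that of the controls (log2 fold change 2.24, SE 0.30, adjusted p = 0.000709). With each library left out in turn, it lay between 2.03 and 2.50.

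*Pkp3* (GSMG0035339, chromosome 7, 141078229 to 141090509, plus strand), which is found in most desmosomes of stratified epithelia, was near the floor. It had 4.44, 0 and 0 in the controls, which is 4 reads in a single library, and 12.4, 13.5 and 24.7 in mutant-labelled replicates 1, 2 and 3. *Pkp3* reached the mean of 10 only through the mutant-labelled libraries. The log2 fold change was 3.28 (SE 0.98, adjusted p = 0.031, and 0.0367 with no minimum mean). It rests on few reads: with each library left out in turn the adjusted p ran from 0.0159 to 0.0905 and was over 0.05 in 5 of 6 fits, and without control replicate 1, the library with the reads, the log2 fold change was 4.09. At a pseudocount of 10 it was 1.22.

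*Pkp4* (GSMG0021103, chromosome 2, 59160848 to 59355204, plus strand) had values of 369, 307 and 379 in the controls and 532, 619 and 404.5 in mutant-labelled replicates 1, 2 and 3. All mutant-labelled values were above the controls, yet replicate 3 was close to them. The log2 fold change of 0.54 (95% interval 0.08 to 1.01, adjusted p = 0.0689) was below 2-fold. Per kb of exons *Pkp4* was the highest plakophilin of the controls, at 61.6 against 14.5 for *Pkp2*, 1.34 for *Pkp1* and 0.41 for *Pkp3*, and no values of these neighbours in the order overlapped except those of *Pkp1* and *Pkp3*. In mutant-labelled libraries the order was *Pkp1* at 644, *Pkp4* at 90.9, *Pkp2* at 71.3 and *Pkp3* at 4.67 per kb, where the ranges of *Pkp4* (70.9 to 108.5) and *Pkp2* (48.3 to 91.9) overlapped.

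Of the plaque proteins, desmoplakin and plakoglobin behaved differently. *Dsp* (GSMG0050899, chromosome 13, 38151294 to 38198577, plus strand), the link to intermediate filaments that every desmosome needs, had 0, 0 and 5.07 in the controls, the last being 4 reads. In mutant-labelled replicates 1, 2 and 3 it had 23.3, 23.2 and 53.4, or 110 reads in all. *Dsp* too was tested only through its level in mutant-labelled libraries. The log2 fold change was 4.12 (SE 0.96, adjusted p = 0.0111, and 0.015 with no minimum mean), with 4.99 when control replicate 3 was left out and 1.85 at a pseudocount of 10. Although it rose, *Dsp* stayed low: per kb it was at 3.45 in mutant-labelled libraries, and its highest value there, 5.53, was below the lowest value of *Pkp1* per kb, 504.

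*Jup* (GSMG0007388, chromosome 11, 100367022 to 100397790, minus strand) was at 2842, 2626 and 2323 in control-labelled and 3206, 2639 and 2834 in mutant-labelled replicates 1, 2 and 3. The genotypes overlapped. The log2 fold change was 0.16 with a 95% interval of -0.12 to 0.43 (adjusted p = 0.344), so a change of 2-fold lies outside the interval. *Jup* was the member with the most reads per kb in the controls, and its *Pkp1* partner in the plaque went from far below it to a level above it in each mutant-labelled library (504 to 786 per kb against 410 to 498).

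To set a raised gene beside others that did not pass the threshold, the promoters of *Dsp*, *Jup* and *Pkp4* are printed, as given in the RefSeq promoter table (GRCm38.p6). *Pkp4* matched 2 windows, of which the one at the start of the gene in the deposited table is printed. They run from 250 bases before to 50 after the start, 5′ to 3′ on the strand of the gene, and capitals mark GC boxes, the letters GGGCGG or, on the other strand, CCGCCC. The windows are chr13:38151044-38151343 (plus strand) for *Dsp*, chr11:100397741-100398040 (minus strand) for *Jup* and chr2:59160600-59160899 (plus strand) for *Pkp4*.
Dsp: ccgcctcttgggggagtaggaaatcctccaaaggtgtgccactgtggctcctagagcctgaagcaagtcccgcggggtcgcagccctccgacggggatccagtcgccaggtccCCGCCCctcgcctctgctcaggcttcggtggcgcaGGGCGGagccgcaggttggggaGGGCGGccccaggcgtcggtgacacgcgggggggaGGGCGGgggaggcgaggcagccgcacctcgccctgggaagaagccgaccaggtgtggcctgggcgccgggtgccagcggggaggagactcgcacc
Jup: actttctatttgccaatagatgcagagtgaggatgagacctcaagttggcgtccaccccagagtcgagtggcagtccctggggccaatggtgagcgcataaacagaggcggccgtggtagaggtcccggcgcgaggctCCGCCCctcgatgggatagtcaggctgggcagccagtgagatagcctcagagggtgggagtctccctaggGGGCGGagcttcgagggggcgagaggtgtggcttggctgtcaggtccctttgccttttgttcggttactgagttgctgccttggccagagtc
Pkp4: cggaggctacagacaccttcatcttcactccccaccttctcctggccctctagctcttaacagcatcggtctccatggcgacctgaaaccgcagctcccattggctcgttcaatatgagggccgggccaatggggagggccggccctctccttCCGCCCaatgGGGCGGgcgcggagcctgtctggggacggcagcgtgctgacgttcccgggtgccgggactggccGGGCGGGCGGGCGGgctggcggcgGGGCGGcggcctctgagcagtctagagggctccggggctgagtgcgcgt
GC boxes numbered 4 in *Dsp*, 2 in *Jup* and 6 in the printed window of *Pkp4*, where 3 of them overlap in a run, and 0 in its second window (chr2:59161619-59161918, plus strand), and 35.7% of the 32851 promoters of this length hold at least 1. The core of the interferon-stimulated response element (GAAA, any 2 bases and GAAA, both strands) was found in none of these windows and in 3.44% of all promoters, and the GAS element (TTCNNNGAA, which reads the same on both strands) in none of them and in 8.30% of all. The E-box CAGGTG, searched on both strands, was found in *Dsp*, from base 254 of the window, in the second window of *Pkp4*, from base 204, and in 20.2% of all promoters. No window of *Pkp1*, *Pkp2*, *Pkp3*, *Dsg2*, *Dsc2* or *Perp* was searched, so whether their promoters hold these motifs was not tested.

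Of the desmosomal cadherins, *Dsg2* (GSMG0018103, chromosome 18, 20558074 to 20604526, plus strand), the desmoglein of nearly all cells with desmosomes, had no reads in any control-labelled library. In mutant-labelled replicates 1, 2 and 3 it had 61.1, 137 and 25.7, or 252 reads in all. Against a floor of 3 reads in each control-labelled library, the mutant-labelled mean was at least 22.5-fold higher, and this floor covers counting error only. This bound on the mean was 13.1-fold without mutant replicate 2. The adjusted p from limma was 0.00097, and 0.00124 with no minimum mean. *Dsg2* reached the minimum mean only through the mutant-labelled libraries. The 95% interval of the fit began at 16.2-fold, and the fitted log2 fold change ran from 5.35 to 6.53 with each library left out. The mutant-labelled values were uneven, with an SD of 76.2% of the mean, and replicate 3, the lowest for *Dsg2*, was the highest for *Pkp1*, *Pkp2*, *Pkp3* and *Dsp*. An unnamed gene on the opposite strand overlaps *Dsg2* and had no reads in any library, and whether the counting used strand was not stated.

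*Dsc2* (GSMG0018754, chromosome 18, 20030633 to 20059554, minus strand), the desmocollin that pairs with it, had values of 26.7, 11.3 and 7.603 in the controls and 111, 52.1 and 51.4 in mutant-labelled replicates 1, 2 and 3. All mutant-labelled values were above the controls. The mean was 4.70 times that of the controls (log2 fold change 2.24, SE 0.61, adjusted p = 0.0212). With each library left out in turn the log2 fold change stayed between 1.87 and 2.72, while the adjusted p ran from 0.0133 to 0.0819 and was over 0.05 in 3 of 6 fits.

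*Perp* (GSMG0002749, chromosome 10, 18845069 to 18857078, plus strand), a target of p53 and, in epidermis, of p63 that is needed for stable desmosomes there, had 98.8, 85.0 and 132 in the controls. In mutant-labelled replicates 1, 2 and 3 it had 74.2, 228 and 55.4. Replicate 2 lay above and the other mutant-labelled libraries below all controls. The log2 fold change of -0.08 (95% interval -1.26 to 1.11, adjusted p = 0.922) changed sign between settings, and the interval leaves room for a 2-fold change in either direction. Mutant-labelled replicate 2 also held the highest sum of 4 adipocyte markers, 6464 against 7.56 to 1596 in the other 5 libraries, and the part of adipocytes in the *Perp* value was not tested. Per kb of exons, the controls ranked *Jup*, *Pkp4*, *Perp* (53.9), *Pkp2*, *Dsc2* (2.88), *Pkp1*, *Pkp3*, *Dsp* (0.17) and *Dsg2*. The ranges of *Pkp4* and *Perp* overlapped, as did those of *Dsc2* and *Pkp1*, of *Pkp1* and *Pkp3*, of *Pkp3* and *Dsp* and, at 0, of *Dsp* and *Dsg2*. In mutant-labelled libraries the order was *Pkp1*, *Jup*, *Pkp4*, *Pkp2*, *Perp* (61.0), *Dsc2* (13.5), *Dsg2* (9.02), *Pkp3* and *Dsp*, where *Pkp1*, *Jup* and *Perp* did not overlap with the next gene below and the others did.

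**Figure D2:**
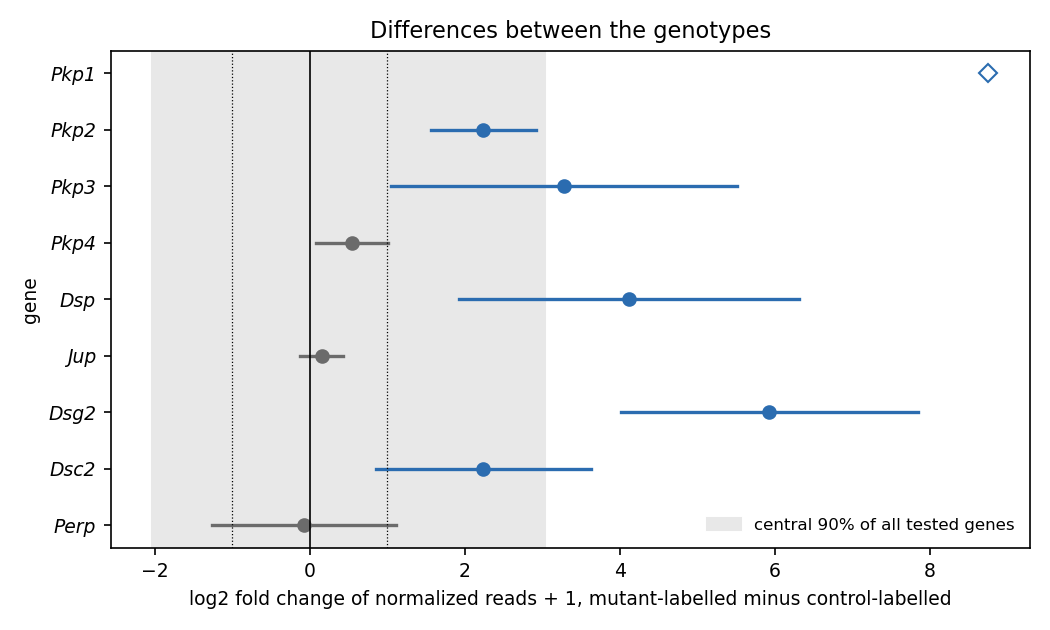
Log2 fold change of normalized reads plus 1 (mutant-labelled minus control-labelled, 3 libraries each) of the 9 genes, with 95% intervals from limma except for *Pkp1*, which is drawn as an open symbol without a test. Blue marks genes past the threshold, dotted lines a 2-fold change and the gray band the central 90% of all tested genes, from -2.03 to 3.03. *Pkp1*, *Pkp3*, *Dsp* and *Dsg2* lie to the right of the band, and *Pkp2* and *Dsc2* inside it.

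The members did not follow a shared order within the mutant-labelled libraries. *Pkp1*, *Pkp2*, *Pkp3* and *Dsp* were highest in replicate 3, *Pkp4*, *Dsg2* and *Perp* in replicate 2, and *Jup* and *Dsc2* in replicate 1. Over the 6 libraries, which form 2 clusters by genotype, Pearson's r of log2 values with *Pkp1* was 0.971 for *Pkp2*, 0.967 for *Dsg2*, 0.937 for *Dsp*, 0.492 for *Jup* and -0.05 for *Perp*. Because of these clusters a high r says little beyond a difference between genotypes, and 205 of 14639 named genes with a mean of at least 50 had an r over 0.99 with *Pkp1*. The 5 genes most like *Pkp1* by this measure were *Tram1l1*, *Plscr1*, *Acsl5*, *Fas* and *Sepw1* (r from 0.999 to 0.9995). The 5 most like *Dsg2* were *Kdm1a*, *Hells*, *Mbd2*, *Ptgs2os* and *Krt16* (r from 0.9974 to 0.9991), and the log2 fold change of *Kdm1a*, the first of them, was 0.23.

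The remaining desmosomal cadherins had values of 59.7 or below in every library. Of 7 genes, 3 passed the filter, 1 rose (*Dsg3*) and none fell. *Dsg3*, the desmoglein of basal epidermis, lies 10.6 kb from *Dsg2* on the same strand. It had no reads in the controls and 7.27, 15.4 and 9.89 in mutant-labelled replicates 1, 2 and 3. The mean of these was at least 3.27-fold above a floor of 3 reads in each control-labelled library (adjusted p = 0.0177 from limma). Its mutant-labelled mean of 10.9 was just over the minimum, which the controls did not reach, and without mutant replicate 2 the mean was 8.58, under the minimum. *Dsg1c* had 13.3, 27.4 and 0 in the controls and 34.9, 52.1 and 29.7 in mutant-labelled libraries (adjusted p = 0.146), and it has close paralogs. *Dsc3* overlapped, *Dsg1b* had no reads in any library, and *Dsg1a*, *Dsg4* and *Dsc1* had reads in 1 library each.

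Among 5 further proteins tied to desmosomes, 2 rose and 1 fell. *Cdsn* encodes corneodesmosin, which sits in the desmosomes of the outermost epidermis, and rose in all 3 mutant-labelled libraries, from 56.6, 49.1 and 48.2 in control-labelled to 1352, 1168 and 2098 in mutant-labelled replicates 1, 2 and 3. Its ratio of means was 30.0 and its log2 fold change 4.84 (SE 0.25, adjusted p = 7.68e-06). *Ppl*, which encodes the plakin periplakin, rose from 71.8 ± 25.4 to 159 ± 30.6 (log2 fold change 1.19, adjusted p = 0.0356). *Kazn* encodes kazrin, a partner of periplakin, and fell from 1600.5 ± 105 to 467 ± 218 (log2 fold change -1.87, adjusted p = 0.0013). *Plec*, the plectin gene, was at 1554 ± 169 and 2294 ± 314, a log2 fold change of 0.56 that is below 2-fold (adjusted p = 0.0137), and *Evpl* overlapped.

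The catenins that serve adherens junctions moved the other way or did not pass. Of 7 genes, 2 fell and none rose. *Arvcf*, a relative of p120 catenin, fell from 7049 ± 818 to 1337 ± 438 (log2 fold change -2.44, adjusted p = 7.2e-05), and *Ctnna3*, the alpha-catenin that binds plakophilin 2 in heart, from 798 ± 89.6 to 175 ± 89.8 (log2 fold change -2.33, adjusted p = 0.002). *Ctnnb1* encodes beta-catenin, the closest relative of plakoglobin, and was at 12558 ± 448 and 10636 ± 706, a log2 fold change of -0.24 (adjusted p = 0.0598). *Ctnnd1*, the p120 catenin gene, overlapped, with a log2 fold change of 0.06 (adjusted p = 0.688).

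Intermediate filament genes, whose products desmoplakin holds, numbered 12, of which 5 were past the threshold and higher and none lower, and the adjusted p of 3 of them was 0.05 or less. *Krt17*, a keratin of hair follicles and wounds, rose from 6.64 ± 7.78 to 121 ± 60.0 (log2 fold change 4.64, adjusted p = 0.00735), and *Krt7*, of simple epithelia, from 34.6 ± 14.7 to 187.4 ± 31.7 (log2 fold change 2.49, adjusted p = 0.00223). *Des*, the desmin gene of muscle, rose from 703 ± 297 to 3939 ± 2985 and was highest in mutant-labelled replicate 3, at 7340, the library with the highest sum of skeletal muscle markers. *Krt5* and *Krt14*, the keratins of basal epidermis, stayed at 20.4 or below and 53.1 or below in every library (adjusted p = 0.0571 and 0.0836), and *Vim*, the vimentin gene, had a log2 fold change of 0.21 (adjusted p = 0.152). *Krt5*, *Krt14*, *Krt17* and *Krt8* were tested only through their level in mutant-labelled libraries, so the count for this list is no support for a rise of keratins.

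Of 12 epithelial genes, 9 passed the filter, 5 were higher and 2 lower past the threshold. *Grhl3*, which drives the barrier program of epidermis, had no reads in the controls and 45.1, 56.0 and 45.5 in mutant-labelled replicates 1, 2 and 3. The mean of these was at least 14.7-fold above a floor of 3 reads in each control-labelled library (adjusted p = 0.000576 from limma). *Grhl1*, a regulator of desmosomal cadherin genes in epidermis, rose from 20.6 ± 6.23 to 91.2 ± 12.2 (log2 fold change 2.12, adjusted p = 0.00567), and *Trp63*, the p63 gene, from 8.88, 2.84 and 15.2 to 30.6, 81.1 and 131 (log2 fold change 3.04, adjusted p = 0.0153). *Esrp2* and *Grhl2* were higher past the unadjusted threshold only (adjusted p = 0.0578 and 0.0658). *Esrp1*, an epithelial splicing regulator, fell from 185.5 ± 46.2 to 18.6 ± 21.0 (log2 fold change -3.96, adjusted p = 0.00859). *Cdh1*, the E-cadherin gene of adherens junctions in SCs, also fell (log2 fold change -2.97, adjusted p = 0.0187), so the list held calls in both directions. Of the 5 genes called higher, *Grhl3*, *Trp63*, *Esrp2* and *Grhl2* reached the minimum mean only through the mutant-labelled libraries, and their count supports nothing. *Epcam*, found in most epithelia, was at 28.9 or below in every library and overlapped.

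**Figure D3:**
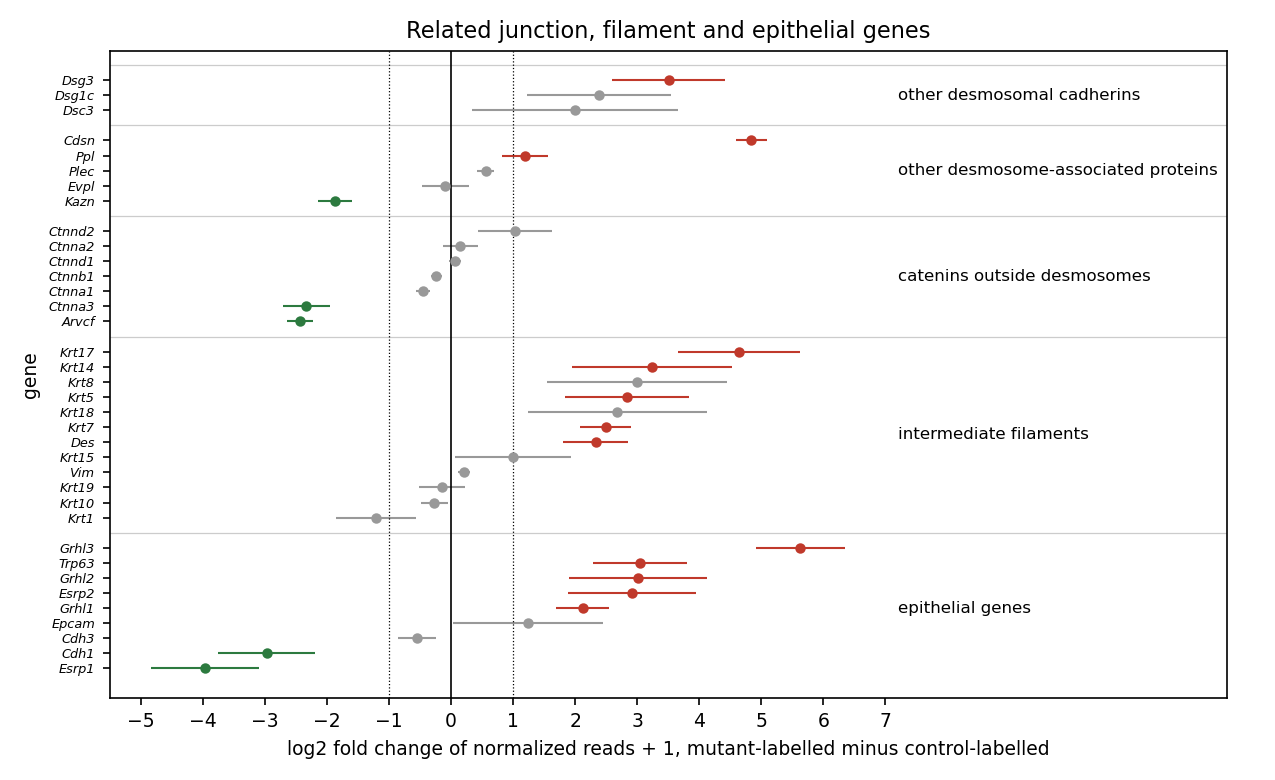
Log2 fold change of normalized reads plus 1 (mutant-labelled minus control-labelled) for the tested genes of 5 related lists, with standard errors from limma. Red marks genes past the threshold and higher, green those past it and lower, gray the rest, and dotted lines a 2-fold change. *Grhl3*, *Cdsn* and *Krt17* lie farthest to the right and *Esrp1* and *Cdh1* farthest to the left, while no catenin was past the threshold and higher.

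The p53 family and its targets were read beside *Perp*. Of 8 genes, 3 rose past the threshold and none fell: *Trp63*, *Sesn2* (from 233 ± 83.9 to 1834 ± 203, log2 fold change 3.02, adjusted p = 5.02e-05) and *Bbc3*, the PUMA gene (from 832 ± 106 to 2936 ± 493, log2 fold change 1.81, adjusted p = 7.72e-05). *Trp53* had a log2 fold change of 0.64 (adjusted p = 0.000703) and *Mdm2* one of 0.86 (adjusted p = 0.00012), both below 2-fold, and *Cdkn1a* overlapped at 0.01 (adjusted p = 0.975). *Trp63* was tested only through its level in mutant-labelled libraries, so of the 3 calls only those of *Sesn2* and *Bbc3* are free of this limit.

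Markers of cell types that carry desmosomes or share their genes were read in every library. For keratinocytes, 4 of 10 markers were past the threshold and higher (*Krt5*, *Krt14*, *Trp63* and *Dsg3*), *Krt1*, *Krt10* and *Sbsn* lay below the controls without overlap but were not past the threshold (log2 fold changes of -1.21, -0.27 and -0.91), *Dsg1a* was at 0 in all mutant-labelled libraries, and the sum ran from 796 to 1152 in control-labelled and from 926 to 1282 in mutant-labelled libraries. These ranges overlapped. Most of the sum came from *Sfn*, *Sbsn* and *Krt10*, with control means of 421, 290 and 200.5, and the 4 higher markers were tested only through their level in mutant-labelled libraries. Of 6 heart muscle markers, *Tnnt2* rose, *Tnni3* and *Myl7* were lower past the threshold, and *Nppa* stayed at 2.53 or below. For skeletal muscle, 7 of 8 markers were past the threshold and higher, and the sum moved with the genotype without overlap. *Pkp1*, *Pkp2*, *Pkp3* and *Dsp* were highest in the library with the highest muscle sum, mutant-labelled replicate 3, and *Dsg2* was lowest there. Without that library the log2 fold changes were 2.03 for *Pkp2* (adjusted p = 0.00571), 2.98 for *Pkp3* (adjusted p = 0.0905), 3.73 for *Dsp* (adjusted p = 0.0465) and 6.53 for *Dsg2* (adjusted p = 0.0025). Of 5 perineurial markers, *Itgb4* fell from a mean of 9176 to 2955.5 (log2 fold change -1.62, adjusted p = 4.35e-05), and none rose past the threshold. *Cldn1* went the other way without overlap but below 2-fold (log2 fold change 0.54, adjusted p = 0.00723). *Slc2a1* lay below the controls (-0.27, adjusted p = 0.0821), and *Lypd2* and *Krt19* overlapped. The sums ran from 16638 to 20019 in control-labelled and from 13697 to 15809 in mutant-labelled libraries, and most of each came from *Itgb4* and *Cldn1*. No marker of endothelial cells (6 genes), pericytes (4) or adipocytes (4) was past the threshold, and *Col1a1* fell among 4 fibroblast markers. *Ptprc* and *Aif1* rose and *Csf1r* fell among 5 macrophage markers, and *Cd8a* and *Nkg7* rose among 4 lymphocyte markers, whose sum was 8.88 to 27.4 in control-labelled and 89.0 to 176 in mutant-labelled libraries. For melanocytes, *Dct* and *Pmel* fell and *Mlana* rose, and the SC markers *S100b* and *Erbb3* fell. *Cd8a*, *Nkg7* and *Mlana* reached the minimum mean only through the mutant-labelled libraries, and *Dct* and *Myl7* only through the controls, so these calls support nothing. The part of cell composition in the values of the 9 genes was not tested.

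**Figure D4:**
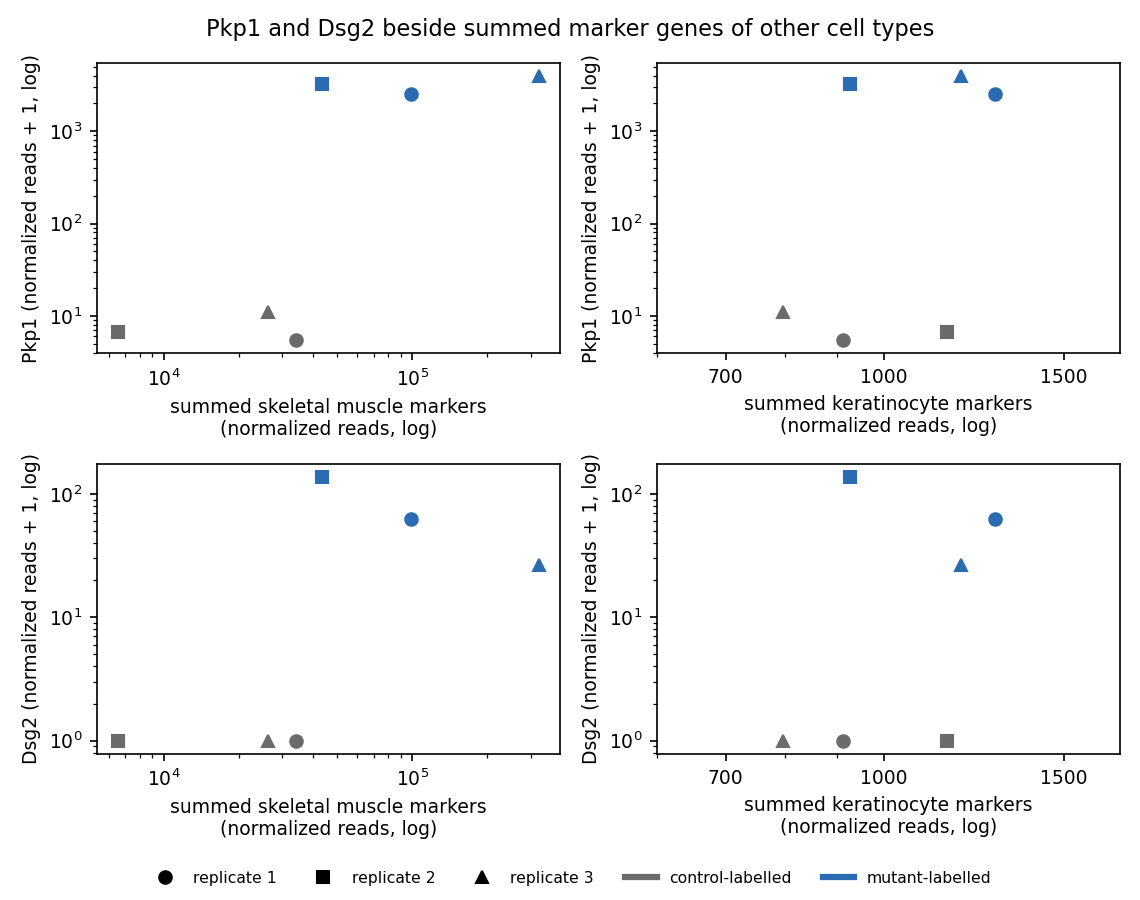
Normalized reads plus 1 of *Pkp1* (top) and *Dsg2* (bottom) in each library against the summed normalized reads of 8 skeletal muscle markers (left) and 10 keratinocyte markers (right), all on log axes, with gray for control-labelled and blue for mutant-labelled libraries. The keratinocyte sums of the genotypes overlap, the muscle sums do not, and *Dsg2* is lowest among mutant-labelled libraries where the muscle sum is highest.

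The genes around the members were read as well, within 100 kb. Of the 7 tested genes near *Pkp1*, 1 rose, *Tnnt2*, a troponin gene 19.1 kb away on the opposite strand, with 131, 45.4 and 110 in the controls and 253, 161 and 664 in mutant-labelled replicates 1, 2 and 3, an order of libraries like that of the skeletal muscle markers. An unnamed gene 1.09 kb from *Pkp1* on the opposite strand (GSMG0065271) had a log2 fold change of 0.57 (adjusted p = 0.0456), below 2-fold, and *Lad1*, an epidermal anchoring gene 38 kb away, overlapped. Of the 10 tested genes near *Pkp3*, 3 were past the threshold and higher and 1 lower. The interferon-induced *Ifitm3* lies 67.5 kb away on the opposite strand and rose (log2 fold change 3.91, adjusted p = 2.88e-05), while *Sigirr*, at 0.67 kb, overlapped. None of the 6 tested genes near *Pkp2* or the 2 near *Dsp* passed the threshold, and among the 9 near *Jup*, *Hap1* rose (log2 fold change 1.84) and *Acly* fell (log2 fold change -1.56).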

How the data were processed

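RNA-seq of sciatic nerves was analysed in 3 control and 3 mutant mice, grouped and numbered by the sample titles. The authors mapped reads to mm10 with STAR (version 2.4.0 in the submitters' processing notes), counted them on constitutive regions of FAST DB genes and divided the counts by DESeq2 size factors. The deposited values are this signal per gene, without the authors' expression filter. In every library 100% of values were whole multiples (within 0.01) of 1 read, worth 0.727 to 1.27, so reads were recovered for the count tests. For mutant replicate 3, whose step is close to 1, an automated check made to spot rounded values did not accept the recovery, but the values carry many decimals.

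limma 3.58.1 (lmFit, eBayes with trend) was fitted to log2(value + 1), in R 4.3.3. Alternatives were other pseudocounts, filters, scalings, no trend, edgeR 4.0.16, DESeq2 1.42.0, an adjusted p limit, a replicate block and leaving out each library. Scripts were tested on simulated data. Rules for naming: all members, any gene of the fixed lists (those past the threshold without overlap first), genes within 100 kb, and the 5 genes most alike by Pearson's r. The members and lists were chosen with earlier results of these data known. Exons came from GENCODE vM21 (GRCm38). Libraries are separate animals. Read floors cover counting error only, since no molecular identifiers separate PCR copies.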

Additional observations from a re-analysis of the deposited data

How the results depend on the processing

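Under the other settings and with each library left out, no member was past the threshold and lower. The count of members past it and higher was 6 in all of them except with a minimum mean of 50, where it was 4 of the 7 members then tested (*Pkp3* and *Dsp* were left out). That setting also lowered the count of related genes that were higher from 13 to 7, with 24 in place of 36 tested. With the replicate block the count of members was 6 as well, and the numbers did not pair the libraries: same-numbered libraries had correlations of deviations of -0.062, -0.055 and 0.009. *Perp* changed sign, to 0.08 rescaled to the same total and 0.18 with edgeR or DESeq2, and ran from -0.68 to 0.33 with a library left out (0.09 to 0.33 in the 3 fits with the opposite sign), never past the threshold. The cause was not tested. Rescaling to the same total moved the median log2 fold change of all genes from 0.03 to 0.19, and *Jup* from 0.16 to 0.32, still not past the threshold. For genes with few reads in the controls the size depends on the pseudocount, with *Dsg2* from 2.85 (pseudocount 10) to 9.23 (0.1) and *Pkp1* from 7.59 to 8.95. Adjusted p-values of *Pkp3* ran from 0.0264 to 0.0978 over 10 other settings and were over 0.05 in 3. Depth limits *Pkp1*, *Pkp3*, *Dsp*, *Dsg2* and *Dsc2*, which had 18, 4, 4, 0 and 42 reads in all control-labelled libraries together.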
